A study of Mus musculus with 12 samples.

Results

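The genes described here encode secondary granule proteins of neutrophils: Ltf, Camp, Ngp, Lcn2, Chil3, Mmp8, Cd177, Pglyrp1 and Hp. They are a fixed list of 9 symbols matched by Ensembl identifier to the gene count table, and each of the 9 matched 1 of the table's 37310 rows. Secondary, or specific, granules are filled during the myelocyte and metamyelocyte stages in bone marrow, after the primary granules and before the gelatinase granules, and their transcripts fade as neutrophils mature. The transcription factor C/EBP epsilon, encoded by Cebpe, is needed for their formation. The granule proteins bind iron and siderophores, kill microbes or digest matrix, and are released when the cell is activated.

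The libraries were bulk RNA-seq of neutrophils sorted from the bone marrow of C57BL/6 mice as CD11b+, Ly6G+, Siglec F- and F4/80- cells, which were then kept for 2 h in culture. The 12 libraries formed 4 groups of 3: Runx1KO with LPS (lipopolysaccharide from the bacterial outer membrane, at 100 ng/mL), Runx1KO with vehicle, Control with LPS and Control with vehicle. Runx1 is a transcription factor of blood cell development, and the series concerns its part in how neutrophils respond to Toll-like receptor signalling. Per the series text, Control marrow was pooled from a Runx1f/f animal and a Runx1f/- animal, where the Runx1f/- genotype carries a germline mutation of 1 allele, and that text calls it LKS- cells, whereas the Control labels describe sorted neutrophils. The Cre driver, the deleted exons and the age of the mice were not given in the sources used here.

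Total counts were 19023610 to 26225169 per library. Runx1 itself had 43.7 to 68.6 CPM in Runx1KO LPS, 60.5 to 75.4 in Runx1KO vehicle, 26.1 to 50.9 in Control LPS and 36.8 to 56.2 in Control vehicle, so it was not lower in the libraries labelled Runx1KO (log2 fold change of Runx1KO over Control 0.63 with vehicle, without overlap, and 0.64 with LPS, with overlap; adjusted p = 0.656 and 0.492 by edgeR). Since the deleted exons are not known, this neither bears out nor refutes the labels: reads from exons outside a deletion check nothing. CPM are counts relative to library sizes scaled by TMM, whose lowest factor was 0.700, in Runx1KO LPS library 3. All 7 neutrophil markers were detected in every group, with summed levels of 86440 to 101128 CPM in Runx1KO LPS, 57275 to 81130 in Runx1KO vehicle, 88114 to 108940 in Control LPS and 88010 to 103163 in Control vehicle. Xist had 0 counts in the 4 libraries numbered 2 and 42.4 to 65.7 CPM in those numbered 1 and 3. The libraries numbered 3 stood apart in their vehicle samples. In these Nfkbiz, an NF-kB cofactor that is induced early by LPS, was at 44.3 CPM in Runx1KO and 76.5 CPM in Control. The other 4 vehicle libraries had 1725 to 2689 CPM of Nfkbiz and the LPS libraries 2461 to 3969 CPM. The highest of these vehicle libraries, Runx1KO library 1, thus lay inside the range of the LPS libraries. The reason for the level of Nfkbiz in vehicle libraries 1 and 2 was not tested. Xist is transcribed in female cells, so in each group library 2 came from other animals than libraries 1 and 3, while the labels do not state the number of animals or whether libraries 1 and 3 differ in theirs; the tests rest on the spread among the 3 libraries of a group.

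Sequence upstream of the genes is shown first because the members are known as a group of genes under C/EBP control in a study of another transcription factor. The 250 bases before the annotated start, from RefSeq on GRCm38.p6, were found for 8 of 9 members (Hp had no entry). Capitals mark the C/EBP-like letters TTNNGCAA on either strand. The 4 promoters that hold them are printed.

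Ngp (chr9:110419558-110419807, plus strand): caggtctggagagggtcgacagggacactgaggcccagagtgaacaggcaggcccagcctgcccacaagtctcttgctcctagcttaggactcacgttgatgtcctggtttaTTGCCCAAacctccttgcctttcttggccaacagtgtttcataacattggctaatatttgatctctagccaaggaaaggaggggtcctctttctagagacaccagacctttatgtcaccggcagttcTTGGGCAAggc
Ltf (chr9:111019042-111019291, plus strand): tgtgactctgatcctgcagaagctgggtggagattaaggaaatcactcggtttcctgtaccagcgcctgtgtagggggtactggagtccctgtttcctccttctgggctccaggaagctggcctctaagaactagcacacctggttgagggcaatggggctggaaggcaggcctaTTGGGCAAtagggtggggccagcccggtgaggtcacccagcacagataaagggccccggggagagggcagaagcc
Mmp8 (chr9:7558179-7558428, plus strand): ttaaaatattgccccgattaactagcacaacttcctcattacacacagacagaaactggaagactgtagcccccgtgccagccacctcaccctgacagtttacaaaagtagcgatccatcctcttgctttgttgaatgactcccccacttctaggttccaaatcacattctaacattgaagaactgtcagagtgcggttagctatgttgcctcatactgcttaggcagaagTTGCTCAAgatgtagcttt
Lcn2 (chr2:32387740-32387989, minus strand): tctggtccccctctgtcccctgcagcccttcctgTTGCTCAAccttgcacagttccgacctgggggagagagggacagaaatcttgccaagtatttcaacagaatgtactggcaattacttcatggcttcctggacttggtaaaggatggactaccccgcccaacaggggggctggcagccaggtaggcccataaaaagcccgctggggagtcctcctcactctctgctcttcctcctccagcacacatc

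The C/EBP-like letters were present in 4 of 8 member promoters and in 9.53% of 27025 mouse promoters of the same length. Ngp held 2 such stretches, which began 138 and 11 bases before the start, and Mmp8 held 1 that began 19 bases before it. The RUNX-like letters TGTGGT, read on both strands, were in 0 of 8 member promoters and in 14.2% of all promoters. This says only that these exact letters are not in this window. Variants of them, such as the TGCGGT in the Mmp8 sequence printed above, were not searched for. A kappa B-like motif, read on both strands, was in 5 of 8 (Ltf, Lcn2, Chil3, Cd177 and Pglyrp1), and in 45.3% of all promoters. In Ltf and Lcn2, which hold both, the kappa B-like stretches did not overlap the C/EBP-like ones. Of the 9 genes, 4 (Ltf, Camp, Ngp and Mmp8) lie on chromosome 9.

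These transcripts were a large part of every library. Together the 9 genes took 10.8%, 8.26% and 7.22% of the counts in Runx1KO LPS libraries 1, 2 and 3, and 9.05%, 8.73% and 6.83% in Runx1KO vehicle. They took 10.5%, 10.0% and 9.38% in Control LPS, and 10.2%, 10.4% and 9.01% in Control vehicle. Exact binomial 95% intervals were within 0.0138 percentage points of each share and cover counting error only. The group means were 8.76 ± 1.85% in Runx1KO LPS, 8.20 ± 1.20% in Runx1KO vehicle, 9.96 ± 0.556% in Control LPS and 9.87 ± 0.747% in Control vehicle (SD, n = 3 each). In each group library 3 had the lowest share, and the groups overlapped within LPS, while with vehicle 1 of 3 Runx1KO libraries lay inside the Control range and 2 below it. Without Ngp the share was 7.68%, 5.70% and 5.67% in Runx1KO LPS, 6.45%, 5.81% and 4.73% in Runx1KO vehicle, 6.62%, 6.18% and 5.66% in Control LPS, and 6.38%, 6.45% and 4.98% in Control vehicle. In bulk RNA, fewer cells that carry a transcript and less of it per cell cannot be told apart.

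**Figure D1:**
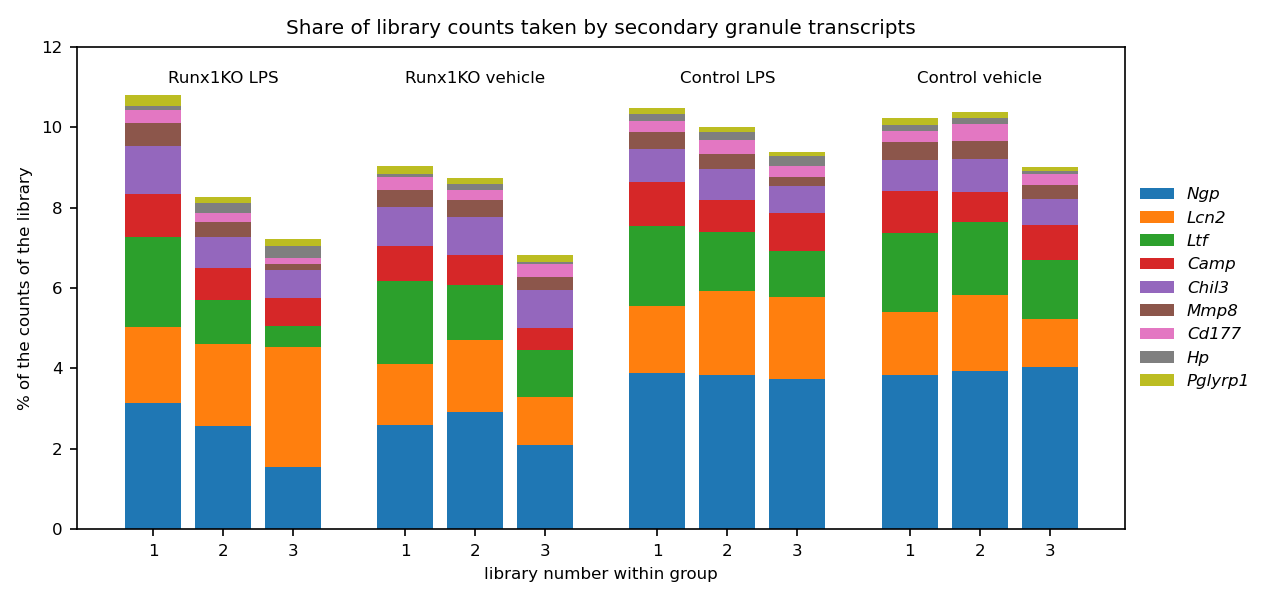
Stacked bars give the percentage of each library's counts (vertical axis) taken by each of the 9 secondary granule genes, for libraries 1, 2 and 3 of each group (horizontal axis). The totals lie between 6.83% and 10.8%, and the Ngp segment is shorter in all 6 Runx1KO libraries than in all 6 Control libraries.

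Ranked by counts, Ngp was between the 2nd and the 8th gene of a library and Lcn2 between the 5th and the 8th. Exon length was the union over all transcripts of a gene in GENCODE M21, since the authors' annotation is not given. Per kilobase of this length, the mean over all 12 libraries was 25880 CPM per kb for Ngp, 11288 for Camp and 7282 for Lcn2. It was 5131 for Chil3, 4330 for Ltf, 1528 for Mmp8, 1084 for Hp, 993 for Cd177 and 874 for Pglyrp1. The SD over the 12 libraries was 6621 CPM per kb for Ngp, 2138 for Camp, 3298 for Lcn2, 848 for Chil3, 1216 for Ltf, 398 for Mmp8, 702 for Hp, 208 for Cd177 and 265 for Pglyrp1. On these lengths, neighbours in this order were further apart than the SD of either gene for Ngp and Camp, Camp and Lcn2, and Ltf and Mmp8. The order of Camp and Lcn2 depends on the length taken, which was 758 bases for Camp and 2623 for Lcn2. By counts alone Lcn2 ranked above Camp, which was between the 9th and the 15th gene of a library. Within Runx1KO LPS alone, Camp and Lcn2 did not differ beyond their spread, at 12583 ± 700 and 10556 ± 5073 CPM per kb (SD, n = 3). The other neighbours (Lcn2 and Chil3, Chil3 and Ltf, Mmp8 and Hp, Hp and Cd177, Cd177 and Pglyrp1) did not differ beyond their spread. Chil3 has a close paralogue, Chil4, which stood at 8.95 to 24.9 CPM, and reads that fit both could be split or lost, so the level of Chil3 is uncertain to that extent. No exon of the 9 genes overlaps that of another gene in GENCODE M21.

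**Figure D2:**
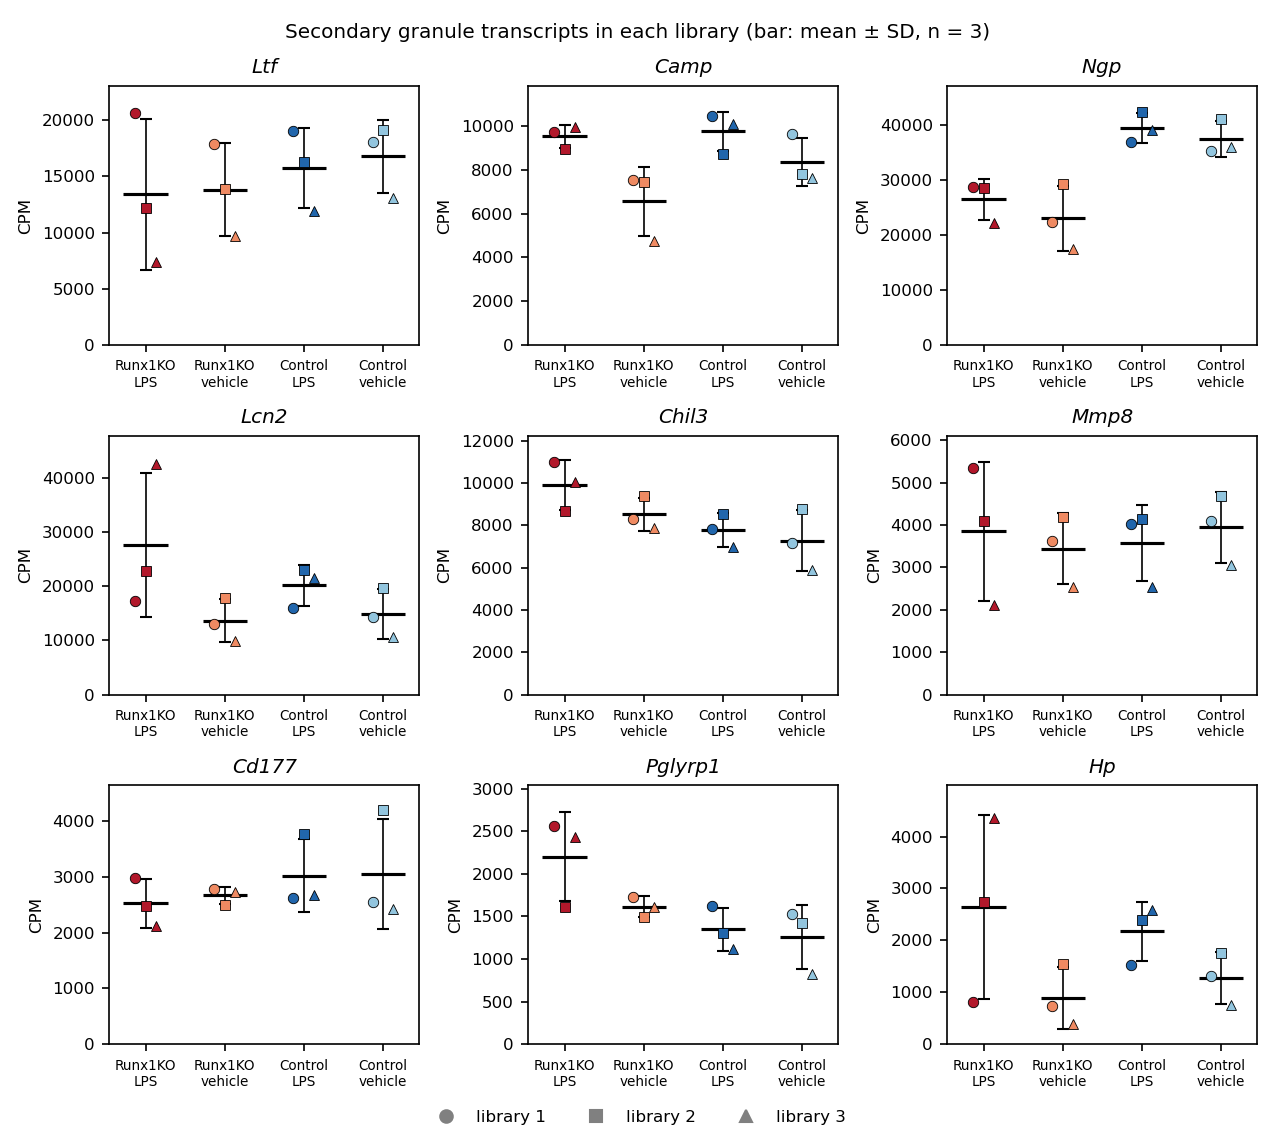
Each panel gives the level of 1 gene in CPM (vertical axis) in the 12 libraries, with circles, squares and triangles for libraries 1, 2 and 3 and bars for mean ± SD. Ngp lies at 17530 to 29248 CPM in the Runx1KO libraries and 35275 to 42368 CPM in the Control libraries. Within a treatment, Camp with vehicle and Chil3 with LPS also do not overlap between genotypes, and the other members overlap in both treatments.

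The first question was how these transcripts differed between the libraries labelled Runx1KO and Control. Ngp, which encodes neutrophilic granule protein, a relative of the cathelicidins, was the member whose genotypes did not overlap in both treatments. It stood at 22419, 29248 and 17530 CPM in Runx1KO vehicle libraries 1, 2 and 3, against 35275, 41166 and 36021 CPM in Control vehicle. With LPS it stood at 28770, 28538 and 22126 CPM in Runx1KO, against 36939, 42368 and 39096 CPM in Control. All 3 Runx1KO libraries lay below all 3 Control libraries in each treatment. The log2 fold change of Runx1KO over Control was −0.70 (SE 0.27, 95% interval −1.30 to −0.11) with vehicle and −0.58 (SE 0.27, −1.17 to 0.02) with LPS. Neither passed edgeR's quasi-likelihood test with Benjamini-Hochberg adjustment over all genes (adjusted p = 0.452 and 0.511).

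Over the whole list, edgeR called 0 of 9 members in either genotype comparison, where it called 0.952% of 12917 genes tested with vehicle and 0.921% with LPS. At an unadjusted p under 0.05 there was 1 member in each, Ngp with vehicle and Pglyrp1 with LPS, against 7.79% and 10.1% of all genes. DESeq2 called 0 members, against 2.99% of all genes with vehicle and 3.1% with LPS, and limma-voom 0 members, against 0.952% and 0.813%. At an unadjusted p under 0.05 both had 1 member with vehicle and 2 with LPS, where DESeq2 had 8.87% and 11.8% of all genes and limma-voom 7.76% and 9.18%. With the library number as a block edgeR called 2.44% and 2.34% of all genes and again 0 members, and the adjusted p of Ngp was then 0.213 with vehicle and 0.286 with LPS. The median log2 fold change of the 9 members was −0.20 with vehicle and 0.11 with LPS, beside 0.00246 and 0.0306 over all genes.

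With vehicle, 2 of 9 members had groups that did not overlap and were lower in Runx1KO, Ngp and Camp, where 7.82% of all genes did so; 0 of 9 were higher without overlap (5.42% of all genes). Camp encodes the cathelicidin antimicrobial peptide. It stood at 7536, 7426 and 4742 CPM in Runx1KO vehicle, against 9646, 7795 and 7641 CPM in Control vehicle (log2 fold change −0.35, SE 0.26, adjusted p = 0.976 by edgeR). The gap between the groups was small beside their spread, and with library size alone as scaling Camp overlapped while Ngp did not. Chil3 stood at 8308, 9374 and 7875 CPM in Runx1KO vehicle, against 7182, 8766 and 5906 CPM in Control vehicle (log2 fold change 0.23, SE 0.25). These groups overlapped, but with library size alone Chil3 was higher in Runx1KO without overlap. In the libraries of the same number 6 of 9 members were lower in all 3 pairs (Ltf, Camp, Ngp, Lcn2, Mmp8 and Hp) and 2 were higher in all 3 (Chil3 and Pglyrp1), against 18.8% and 15.9% of all genes. Some of these differences were small: that of Ltf in pair 1 was −0.015 in log2 CPM and those of Lcn2 −0.15 to −0.11. With library size alone Ltf in pair 1 was higher in Runx1KO, at 20722 against 19687 CPM. Members that vary together, as Ltf and Mmp8 do, are not separate observations.

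With LPS, Ngp was lower without overlap (6.76% of all genes were) and Chil3 higher without overlap (6.51% of all genes). Chil3 encodes the chitinase-like lectin Ym1, known from mouse myeloid cells. It stood at 11011, 8687 and 10041 CPM in Runx1KO LPS, against 7847, 8532 and 6957 CPM in Control LPS (log2 fold change 0.35, SE 0.25, adjusted p = 0.735 by edgeR). The lowest Runx1KO library lay just above the highest Control library, and with library size alone as scaling the groups overlapped. Pglyrp1 encodes a peptidoglycan recognition protein that binds bacterial cell walls. It stood at 2569, 1610 and 2433 CPM in Runx1KO LPS, against 1621, 1311 and 1121 CPM in Control LPS (log2 fold change 0.71, SE 0.30, adjusted p = 0.447 by edgeR). Library 2 of Runx1KO lay inside the Control range, so these groups overlapped. With vehicle Pglyrp1 stood at 1734, 1491 and 1615 CPM in Runx1KO and 1524, 1420 and 829 CPM in Control, which overlapped as well (log2 fold change 0.36, SE 0.30). With LPS 2 of 9 members, Chil3 and Pglyrp1, were higher in all 3 same-number pairs and 1, Ngp, was lower in all 3, against 18.1% and 19.0% of all genes.

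Ltf encodes lactoferrin, the iron-binding protein that marks secondary granules. It stood at 17904, 13858 and 9667 CPM in Runx1KO vehicle, against 18086, 19153 and 13088 CPM in Control vehicle. With LPS it stood at 20639, 12185 and 7386 CPM in Runx1KO, against 19048, 16297 and 11941 CPM in Control. Library 3 was the lowest of each group, and the genotypes overlapped in both treatments (log2 fold change −0.28, SE 0.39, and −0.23, SE 0.39). Mmp8, neutrophil collagenase, ran from 2111 to 5360 CPM in Runx1KO LPS, 2535 to 4186 in Runx1KO vehicle, 2541 to 4148 in Control LPS and 3050 to 4697 in Control vehicle. Cd177, a surface and granule membrane glycoprotein of neutrophils, stood at 2986, 2483 and 2119 CPM in Runx1KO LPS and 2621, 3776 and 2678 CPM in Control LPS. With vehicle it stood at 2785, 2500 and 2731 CPM in Runx1KO and 2552, 4199 and 2425 CPM in Control. Library 2 was the highest Control library in both treatments, and the genotypes overlapped. The 95% intervals of Runx1KO over Control with vehicle were −1.13 to 0.57 for Ltf and −0.83 to 0.44 for Cd177 on the log2 scale, so differences of either sign within these limits are compatible with the data.

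**Figure D3:**
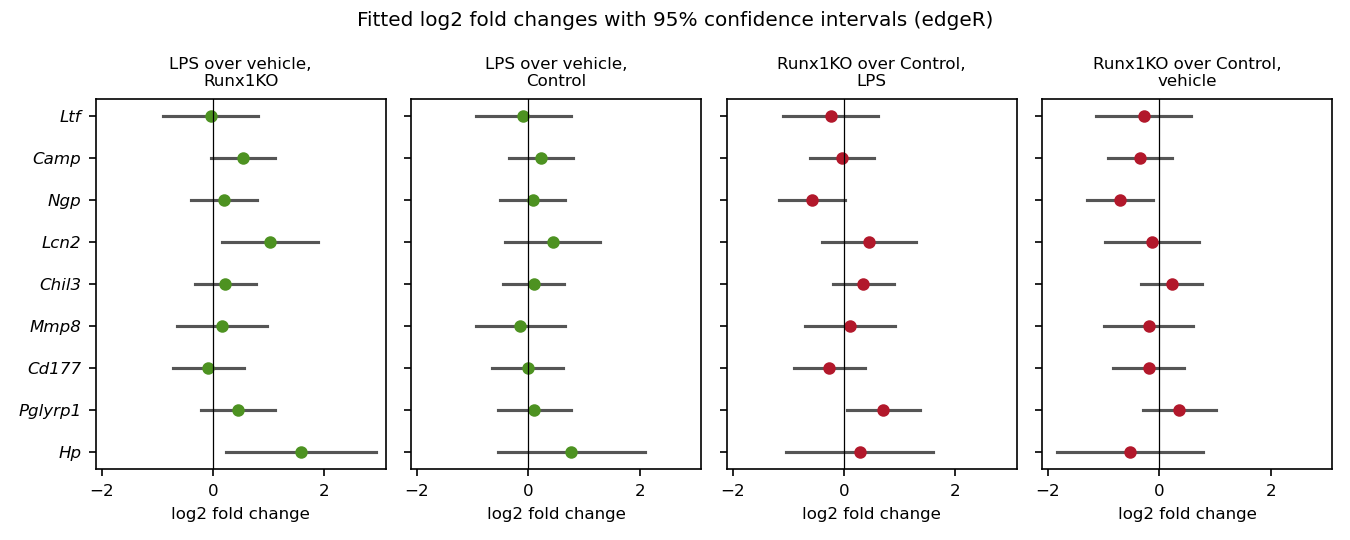
Points give the log2 fold change of each gene (horizontal axis) fitted by edgeR and lines its 95% confidence interval, for LPS over vehicle in each genotype and Runx1KO over Control in each treatment. Of the 36 intervals, those of Lcn2 and Hp for LPS in Runx1KO, Pglyrp1 for Runx1KO with LPS and Ngp for Runx1KO with vehicle lie to 1 side of 0.

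Ratios of counts within a library need no scaling, and these were chosen for comparison after the levels had been seen. The ratio of Ngp to Chil3 was 2.61, 3.29 and 2.20 in Runx1KO LPS and 2.70, 3.12 and 2.23 in Runx1KO vehicle, against 4.71, 4.97 and 5.62 in Control LPS and 4.91, 4.70 and 6.10 in Control vehicle. The 6 Runx1KO libraries thus lay at 2.20 to 3.29 and the 6 Control libraries at 4.70 to 6.10. These ranges pool LPS and vehicle libraries. Across genes, those of the same number deviated together at r of 0.39 to 0.67 in Control and 0.0058 to 0.537 in Runx1KO. The 6 libraries of a genotype can therefore not be taken as 6 separate observations. For Ngp over Pglyrp1 the ranges were 9.10 to 19.6 in Runx1KO and 22.8 to 43.5 in Control. Ngp over Lcn2 ran from 0.518 to 1.77 in Runx1KO and 1.82 to 3.36 in Control, and Ltf over Pglyrp1 from 3.04 to 10.3 in Runx1KO and 10.7 to 15.8 in Control. These 4 of the 36 member pairs had no overlap between genotypes, where 5.03% of all pairs of tested genes had none; 3 of the 4 share Ngp, so they are not separate observations. The count ratio of Ngp was lower without overlap in Runx1KO against 14.1% of the other 12916 genes, and 2.77% of all genes reached that share (median 0.906%). For Ltf the share was 2.31% and for Camp 2.45%. In the other direction, the ratio of Pglyrp1 was higher without overlap against 8.04% of other genes and that of Chil3 against 4.87%. The median of this share over all genes was 1.35%, and 3.24% of all genes reached the share of Pglyrp1 and 6.24% that of Chil3.

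**Figure D4:**
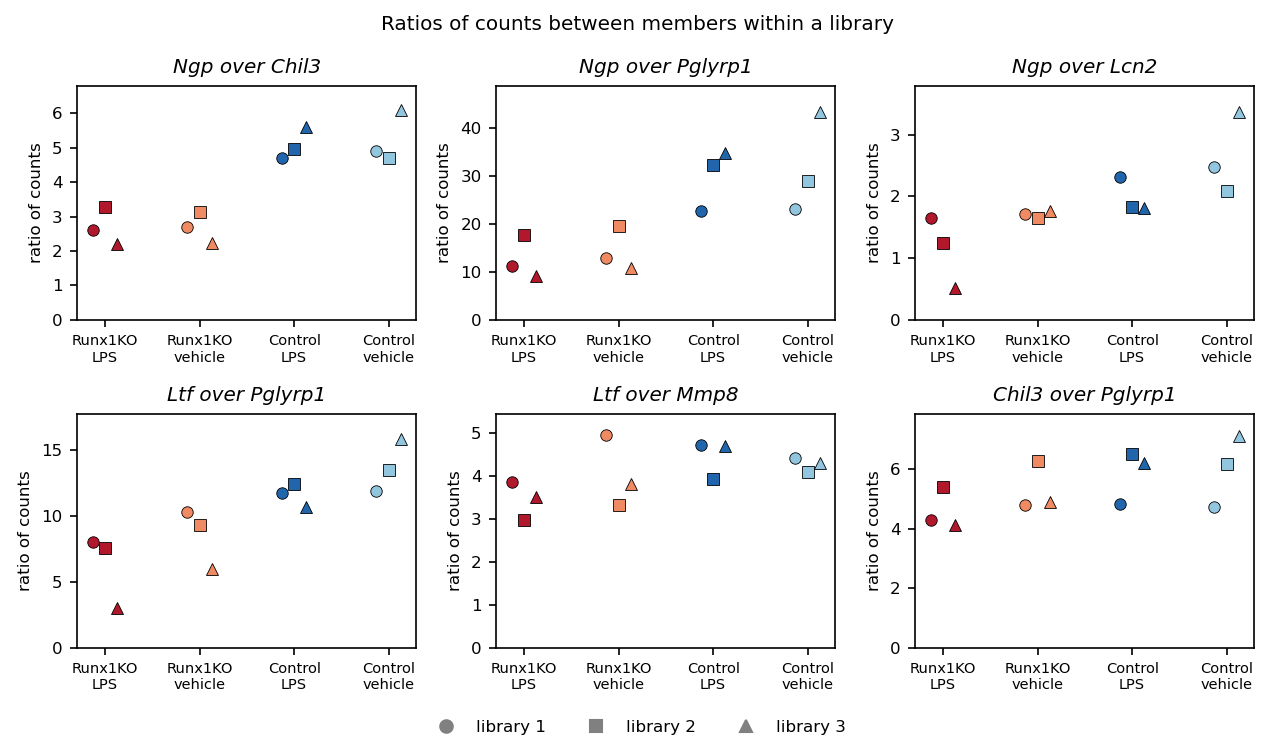
Each panel gives the ratio of counts of 2 members within a library (vertical axis) in the 4 groups, with circles, squares and triangles for libraries 1, 2 and 3. The Runx1KO libraries lie below all Control libraries in the panels of Ngp over Chil3, Pglyrp1 and Lcn2 and of Ltf over Pglyrp1, and the genotypes overlap in those of Ltf over Mmp8 and Chil3 over Pglyrp1.

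The second question was what 2 h of LPS did. Lcn2 and Hp were the members with the largest differences, and both were higher with LPS in all 3 pairs of libraries of the same number in each genotype. Lcn2 encodes lipocalin 2, which sequesters bacterial siderophores and, beside its place in granules, is known as an NF-kB and Nfkbiz target. It stood at 17398, 22951 and 42717 CPM in Runx1KO LPS, against 13126, 17812 and 9920 CPM in Runx1KO vehicle. In Control it stood at 15943, 23110 and 21507 CPM with LPS, against 14254, 19777 and 10708 CPM with vehicle. The LPS and vehicle groups overlapped in both genotypes; library 3 of Runx1KO LPS was the highest of the 12, and both vehicle libraries numbered 3 were the lowest. The log2 fold change was 1.02 (SE 0.39, 95% interval 0.17 to 1.88) in Runx1KO and 0.44 (SE 0.39) in Control, with adjusted p = 0.873 and 1 by edgeR.

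Hp encodes haptoglobin, a haemoglobin-binding acute phase protein that is also stored in neutrophil granules. It stood at 809, 2748 and 4355 CPM in Runx1KO LPS, against 731, 1542 and 379 CPM in Runx1KO vehicle. In Control it stood at 1531, 2389 and 2590 CPM with LPS, against 1314, 1747 and 755 CPM with vehicle. Its range over the 12 libraries was 11.5-fold, where that of the other members was 1.86-fold to 4.31-fold. The log2 fold change of LPS was 1.58 (SE 0.62) in Runx1KO and 0.77 (SE 0.60) in Control, and neither passed (adjusted p = 0.873 and 1 by edgeR).

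Both values rested in large part on the libraries numbered 3. Differences between libraries of the same number describe these libraries; for LPS in Runx1KO the pair numbered 3 did not deviate together over all genes (r = 0.0058, against 0.314 and 0.537 for the pairs numbered 1 and 2). The same-number difference of Lcn2 in log2 CPM was 0.41, 0.37 and 2.11 in Runx1KO and 0.16, 0.22 and 1.01 in Control. That of Hp was 0.15, 0.83 and 3.52 in Runx1KO and 0.22, 0.45 and 1.78 in Control. Without the 4 libraries numbered 3 the fitted log2 fold change in Runx1KO was 0.36 for Lcn2 (SE 0.34) and 0.63 for Hp (SE 0.61). Without Runx1KO LPS library 3 alone it was 0.57 for Lcn2 and 1.01 for Hp, and without Runx1KO vehicle library 3 alone 0.84 and 1.21. Over all fits with libraries left out it ran from 0.36 to 1.38 for Lcn2 and from 0.63 to 2.24 for Hp. The highest value of Lcn2 came without the libraries numbered 2, and that of Hp without Runx1KO vehicle library 2. Nfkbiz moved with them: its same-number difference was 0.024, 1.03 and 6.40 in Runx1KO and 0.63, 0.80 and 5.01 in Control. Its part in the result was not tested.

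**Figure D5:**
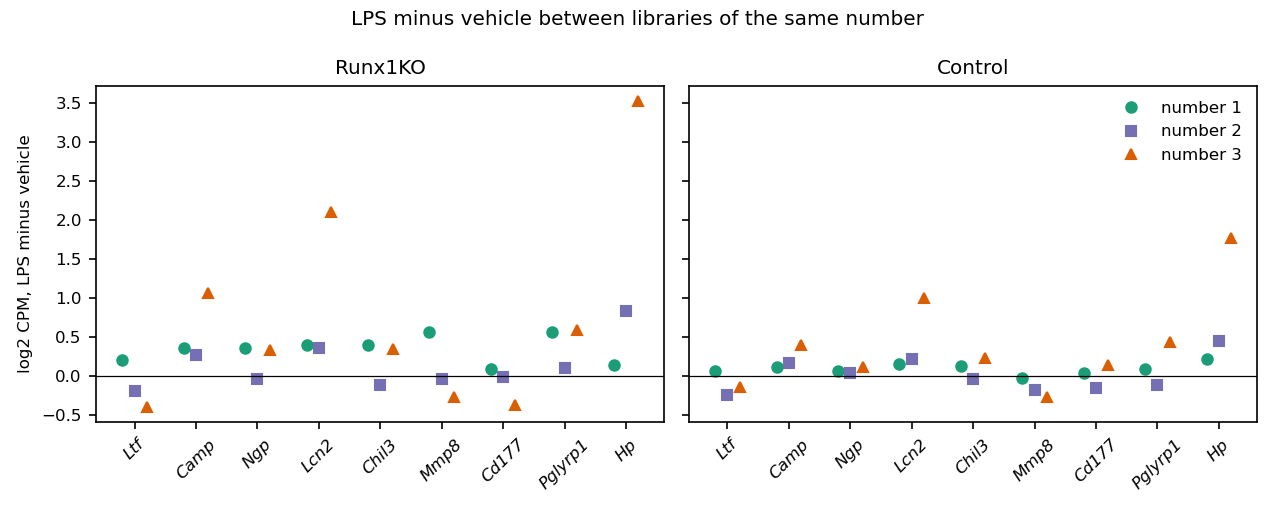
Points give log2 CPM with LPS minus that with vehicle (vertical axis) for each gene between libraries of the same number, in Runx1KO on the left and Control on the right. For Lcn2 and Hp the pair numbered 3 (triangles) lies at 1.01 to 3.52 and the other pairs at 0.15 to 0.83.

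Camp showed a smaller difference. It stood at 9718, 8941 and 9954 CPM in Runx1KO LPS, against 7536, 7426 and 4742 CPM in Runx1KO vehicle, with no overlap (3.51% of all genes were higher without overlap in that comparison and 3.2% lower, where no member was). In Control it stood at 10448, 8740 and 10089 CPM with LPS, against 9646, 7795 and 7641 CPM with vehicle, which overlapped. In Control 0 of 9 members were higher or lower without overlap, against 2.84% and 2.32% of all genes. The log2 fold change was 0.54 (SE 0.26, adjusted p = 0.873 by edgeR) in Runx1KO and 0.22 (SE 0.26) in Control. With library size alone as scaling the Runx1KO groups overlapped for Camp and ceased to overlap for Lcn2. The other 6 members had log2 fold changes of −0.08 to 0.45 in Runx1KO and −0.14 to 0.10 in Control. With library size alone the sign turned to negative for Ngp and Chil3 in both genotypes and for Mmp8 in Runx1KO. That scaling moved the median of all genes in the comparison from 0.0279 to −0.281 in Runx1KO and from −0.0198 to −0.140 in Control.

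By edgeR 0 of 9 members passed for LPS in Runx1KO and 0 of 9 in Control, with 0.0% of all genes called in both comparisons. For single tests with an unadjusted p under 0.05 there were 2 members in Runx1KO (Lcn2 and Hp) and 0 in Control, against 5.23% and 0.604% of all genes. DESeq2 and limma-voom called 0 members in both; DESeq2 called 0.00774% of all genes (1 gene) in Runx1KO and 0.0% in Control, and limma-voom 0.0% in both. At an unadjusted p under 0.05 both tools had 3 members in Runx1KO and 0 in Control, against 7.01% and 0.859% of all genes for DESeq2 and 4.13% and 0.41% for limma-voom. Taking libraries of the same number together, which in Runx1KO did not pair for number 3, higher in all 3 were 4 of 9 members in Runx1KO (Camp, Lcn2, Pglyrp1 and Hp) and 4 of 9 in Control (Camp, Ngp, Lcn2 and Hp), against 15.6% and 16.3% of all genes. Lower in all 3 were 0 of 9 in Runx1KO and 1 of 9, Mmp8, in Control, against 12.8% and 18.6% of all genes. The median of the members was 0.22 in Runx1KO and 0.09 in Control, beside 0.0279 and −0.0198 over all genes.

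The third question was whether the LPS response differed between the genotypes. The difference of responses, Runx1KO minus Control, was 0.81 for Hp (SE 0.85, 95% interval −1.05 to 2.66) and 0.59 for Lcn2 (SE 0.55, −0.61 to 1.79) on the log2 scale. For the other 7 members it was −0.06 to 0.35. By edgeR 0 of 9 members and 0.0% of all genes were called, and at an unadjusted p under 0.05 there were 0 members, against 0.596% of all genes. DESeq2 and limma-voom also had 0 members called or at an unadjusted p under 0.05, where they called 0.0% of all genes and had 0.681% and 0.441% at that unadjusted p.

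Among themselves the members did not follow a single pattern over the 12 libraries. The most alike in log2 CPM were Lcn2 and Hp (Pearson r = 0.913), Ltf and Mmp8 (0.873) and Chil3 and Pglyrp1 (0.865), and the least alike Ngp and Pglyrp1 (−0.528) and Ltf and Lcn2 (−0.350). These are descriptions over 12 libraries that share genotype, treatment and library number. The ratio of Ltf to Mmp8, both matrix proteins of the granule, was the steadiest of the 36, at 2.98 to 4.94 in Runx1KO and 3.93 to 4.72 in Control. The ratio of Ltf to Hp was the least steady, at 1.70 to 25.5 in Runx1KO and 4.61 to 17.3 in Control. The mean of the centred log2 levels of the 9 genes was lowest in the vehicle libraries numbered 3, at −0.61 in Runx1KO and −0.39 in Control, and lay between −0.16 and 0.26 in the other 10. Outside the list, of 7054 genes the 6 most like that mean were Slc2a1 (r = 0.929), Gadd45b (0.916), Nr4a1 (0.894), Nfkbiz (0.891), Dusp2 (0.882) and Ccrl2 (0.881), over the same 12 libraries. The members themselves were unequally like the mean. Their r to it was 0.774 for Camp, 0.765 for Hp and 0.754 for Lcn2, but 0.345 for Pglyrp1, 0.337 for Ltf and 0.332 for Cd177. For Ngp, Chil3 and Mmp8 it was 0.540, 0.534 and 0.471. Likeness to the mean is thus not likeness to each member.

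The regulators and neighbouring granule genes were read from lists chosen with earlier results known. Of 8 transcription factors of granulocyte maturation 0 passed edgeR's test in any of the 5 comparisons. Cebpe stood at 32.2, 10.1 and 9.78 CPM in Runx1KO LPS, 17.8, 15.3 and 27.9 CPM in Runx1KO vehicle, 23.5, 27.0 and 32.3 CPM in Control LPS and 27.5, 35.7 and 39.9 CPM in Control vehicle. With vehicle 1 Runx1KO library lay inside the Control range, and the log2 fold change was −0.76 (SE 0.43, adjusted p = 0.837 by edgeR). Cebpb, Spi1 and Cebpd were the most abundant of the list, with log2 fold changes of Runx1KO over Control with vehicle of −0.04, −0.03 and −0.16.

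Of 8 primary granule genes 1 fell and 0 rose in Runx1KO against Control in each treatment, against 0.604% of all genes lower with vehicle and 0.573% with LPS, and 0 passed for LPS over vehicle in either genotype. The other direction was the more frequent among values that did not pass: 5 of 8 had a positive log2 fold change in each treatment, with a list median of 0.44 with vehicle and 0.79 with LPS. The gene that fell was Cd63, a tetraspanin of the primary granule membrane. It averaged 39.5 ± 4.04 CPM in Runx1KO vehicle and 148 ± 32.3 CPM in Control vehicle (SD, n = 3 each; log2 fold change −1.91, adjusted p = 0.00501 by edgeR), and 44.6 ± 3.93 CPM in Runx1KO LPS and 142 ± 27.8 CPM in Control LPS (−1.67, adjusted p = 0.00904). Processed pseudogenes of Cd63 may share its reads, so its level is uncertain. Mpo, myeloperoxidase, averaged 77.6 ± 41.9 CPM in Runx1KO vehicle and 54.4 ± 48.4 CPM in Control vehicle (SD, n = 3 each), which overlapped. Serpinb1a, an inhibitor of the granule proteases, averaged 366 ± 132 CPM in Runx1KO vehicle and 465 ± 91.8 CPM in Control vehicle (SD, n = 3 each), which overlapped too.

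Of 10 genes of the gelatinase granule and mature neutrophil, 12 other secretory and specific granule genes and 10 cell cycle genes 0 passed edgeR's test in any of the 5 comparisons. Of the 10 gelatinase granule and mature neutrophil genes 3 had a positive log2 fold change of Runx1KO over Control in each treatment. Their median was −0.32 with vehicle and −0.20 with LPS, beside 0.00246 and 0.0306 over all genes. The 3 most abundant of this list are described next. S100a9, a subunit of calprotectin, averaged 33415 ± 6611 CPM in Runx1KO vehicle and 46172 ± 2197 CPM in Control vehicle (SD, n = 3 each), without overlap. With vehicle 7.82% of all genes were lower without overlap. The log2 fold change of S100a9 was −0.47 with vehicle (adjusted p = 0.821 by edgeR) and −0.04 with LPS, where the genotypes overlapped. S100a8, the other subunit, overlapped in both treatments (log2 fold change −0.44 with vehicle and 0.08 with LPS). The resistin-like gene Retnlg averaged 23278 ± 3543 CPM in Runx1KO LPS and 13004 ± 1546 CPM in Control LPS (SD, n = 3 each), without overlap. Its log2 fold change was 0.84 with LPS (adjusted p = 0.315 by edgeR) and 0.53 with vehicle, where the genotypes overlapped. Of the other secretory list, Lyz2 was higher in Runx1KO with LPS without overlap (0.46) and overlapped with vehicle (0.28). Cybb overlapped in both treatments (0.17 with LPS and −0.34 with vehicle). With LPS 6.51% of all genes were higher without overlap. Chil1, another chitinase-like gene and 1 of the 3 most abundant of its list, averaged 2552 ± 1585 CPM in Runx1KO LPS and 1038 ± 457 CPM in Runx1KO vehicle (SD, n = 3 each; log2 fold change 1.30, adjusted p = 0.873 by edgeR). Its same-number differences were 0.16, 0.56 and 2.92 in log2 CPM, so the pair numbered 3 stood apart as it did for Lcn2 and Hp. Of the 10 cell cycle genes the most abundant, Mki67, Top2a and Cdc20, overlapped between genotypes in both treatments. The median log2 fold change of the 10 cell cycle genes was −0.39 for Runx1KO over Control with vehicle and −0.37 with LPS. Over all genes it was 0.00246 and 0.0306. Of the 10 cell cycle genes 0 had a positive value with vehicle and 1 with LPS. The median of 9 NF-kB and Lcn2 inducing genes was 1.45 for LPS in Runx1KO and 1.15 for LPS in Control, and 0 passed. These values too were larger in the libraries numbered 3: among the 3 most abundant, Nfkbiz, Nfkbia and Il1b, the same-number difference of pair 3 was 6.40, 4.33 and 5.76 in Runx1KO and 5.01, 4.25 and 2.77 in Control. In pairs 1 and 2 it lay between 0.024 and 1.03 for these genes.

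Ly6g and the markers of some other cells differed in level between the genotypes, and their part in the values of Ngp was not tested. Ly6g, which encodes the antigen of the sort, stood at 106, 154 and 152 CPM in Runx1KO vehicle, against 418, 418 and 381 CPM in Control vehicle (log2 fold change −1.56, adjusted p = 0.0521 by edgeR). With LPS it stood at 351, 156 and 158 CPM in Runx1KO, against 471, 395 and 400 CPM in Control (log2 fold change −0.93, adjusted p = 0.315 by edgeR). The genotypes did not overlap in either treatment, but with library size alone as scaling they overlapped with LPS. The summed level of 7 monocyte and macrophage markers, all detected, was 960 to 2953 CPM in Runx1KO LPS, 726 to 1378 in Runx1KO vehicle, 1583 to 1944 in Control LPS and 1350 to 1724 in Control vehicle. That of 5 progenitor markers, all detected, was 26.0 to 94.0 CPM in Runx1KO LPS, 36.3 to 76.1 in Runx1KO vehicle, 33.6 to 55.9 in Control LPS and 36.4 to 52.2 in Control vehicle, so the genotypes overlapped. Of 5 basophil and mast cell markers, Mcpt8, Prss34 and Fcer1a had 0 counts in both Runx1KO groups and the 5 summed to 3.39 to 24.2 CPM in the Control libraries. The 7 erythroid markers summed to 212 to 3112 CPM over the 6 Runx1KO libraries and 286 to 1266 CPM over the 6 Control libraries, and the 5 megakaryocyte and platelet markers to 25.0 to 38.3 CPM in Runx1KO and 1.52 to 6.41 CPM in Control. The 5 T and NK cell markers summed to 4.71 to 8.76 CPM in Runx1KO and 35.0 to 53.4 CPM in Control, and the 5 B lineage markers to 7.67 to 17.1 CPM in Runx1KO (Ms4a1 at 0 counts with vehicle) and 17.0 to 47.9 CPM in Control. The 7 eosinophil markers summed to 9.47 to 28.5 CPM in Runx1KO and 10.7 to 34.6 CPM in Control.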

How the data were processed

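The deposited values are raw counts, whole numbers for each gene and library. STAR 2.6.0a, featureCounts and mm9 are named in the submitters' processing notes. Annotation release, strand setting and read filters: not given in the sources used here. ERCC spike-ins were added, per the labels' protocols, and were not used here. The 12 columns were matched to samples through their names, which abbreviate the genotype, treatment and number in the titles. Gene symbols came from a separate list (32620 of 37310 identifiers matched). The 9 members, the other lists and the rule for named genes (all members, called list genes, otherwise the 3 most abundant of a list, Runx1, and the 6 most similar genes among those averaging 2 or more in log2 CPM) were chosen with earlier results of these data known. Ly6g, Cebpe and the count ratios were chosen after values were seen.

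Genes were kept with edgeR 4.0.16 filterByExpr (12917 genes, all 9 members among them), scaled by TMM and tested with the quasi-likelihood test using 1 fit to all 12 libraries (R 4.3.3), with Benjamini-Hochberg adjustment over all genes and a threshold of 0.05. Standard errors are the log2 fold change divided by the square root of the F statistic. Log2 CPM used a prior count of 2, and ratios to all genes a pseudocount of 0.5. The scripts were tested on simulated data. Alternatives were DESeq2 1.42.0, limma-voom 3.58.1, other scalings, no filter, a library number block and leaving out libraries. With 3 against 3 an exact permutation test cannot go below 0.1. Same-number libraries deviated together: across genes their deviations from the group means correlated at 0.374 to 0.666 in the comparisons of the genotypes and of LPS in Control, which pairs them by a minimum of 0.1. For LPS in Runx1KO the pairs numbered 1 and 2 passed that minimum (0.314 and 0.537) and the pair numbered 3 did not (0.0058), so pairing was not taken as given there. The main fit held no term for library number in any comparison, so its standard errors and p-values do not use the pairing. The library number entered as a block only in the alternative fit.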

Additional observations from a re-analysis of the deposited data

How the results depend on the processing

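No member was called in any of the 5 comparisons under any alternative run, so these results concern directions and the counts over all genes. Of 351 member values under another scaling, filter, tool, fit or sample set, 341 kept their direction. With library size alone the log2 fold change turned to −0.075 for Ngp, −0.085 for Chil3 and −0.056 for Mmp8 for LPS in Runx1KO, to −0.046 for Ngp and −0.014 for Chil3 for LPS in Control, and to −0.069 for Ltf, −0.028 for Ngp and −0.071 for Chil3 in the difference of responses. With limma-voom it turned to 0.0097 for Cd177 for LPS in Control and to −0.027 for Ltf in the difference. The cause was not tested.

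Counts of all genes called moved from 123 with vehicle and 119 with LPS between genotypes to 386 and 401 with DESeq2, to 315 and 302 with the replicate block, and to 27 with LPS when only the groups compared were fitted; DESeq2 called 1 gene for LPS in Runx1KO. The replicate block called 0 genes for LPS in Runx1KO and changed no call of a member. At an unadjusted p under 0.05 by edgeR with this block there were 3 members for LPS in Runx1KO, among 1145 of 12917 genes. There were 0 members for LPS in Control (158 genes) and 0 in the difference of responses (185 genes). Between genotypes there was 1 member with vehicle (1631 genes) and 2 with LPS (2015 genes). Leaving out libraries, singly or the 4 of a number, gave 1 to 70 called genes with vehicle and 3 to 135 with LPS, with fewer samples in each fit. The mean summed share then ran from 7.74 to 9.53% in Runx1KO LPS, 7.78 to 8.89% in Runx1KO vehicle, 9.70 to 10.3% in Control LPS and 9.62 to 10.3% in Control vehicle.

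Of 459 member values with libraries left out, 50 changed sign; the log2 ranges follow. For LPS in Runx1KO these were Ltf (−0.50 to 0.25), Mmp8 (−0.16 to 0.45), Cd177 (−0.22 to 0.033). For LPS in Control these were Ltf (−0.24 to 0.081), Chil3 (−0.037 to 0.25), Mmp8 (−0.30 to 0.059), Cd177 (−0.21 to 0.28), Pglyrp1 (−0.12 to 0.26). For Runx1KO over Control with vehicle these were Lcn2 (−0.37 to 0.13), Cd177 (−0.34 to 0.15). For Runx1KO over Control with LPS these were Ltf (−0.69 to 0.054), Camp (−0.11 to 0.012), Lcn2 (−0.0058 to 0.70), Mmp8 (−0.21 to 0.40), Hp (−0.29 to 0.71). For the difference of responses these were Ltf (−0.41 to 0.33), Ngp (−0.038 to 0.33), Chil3 (−0.035 to 0.25), Mmp8 (−0.014 to 0.59), Cd177 (−0.37 to 0.13). The precision of the members is limited by the spread between 3 libraries, not by their counts.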
